A study of Mus musculus with 11 samples.

Results

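The imprinted genes described here are 39 mouse genes taken by symbol from those known to be imprinted, each matched through its Ensembl ID to 1 row of a table of 22369 protein-coding genes, and all 39 were found. Of these, 31 reached a mean of at least 1 CPM (a gene's counts relative to the scaled size of its library) and were among the 12479 genes tested, and the other 8 fell below it. RNA had been sequenced in 11 clonal lines of the mouse embryonic stem cell line EBRTcH3, 1 library per clone. In all 11 lines the endogenous ROSA26 promoter drives a tetracycline-controlled transactivator, and the lines carry multiple barcoded piggyBac reporters driven by the mouse PGK promoter. Each was picked as a single clone from cells sorted for high eGFP, and grown in medium conditioned by BRL cells with leukemia inhibitory factor, the MEK inhibitor PD0325901 and the GSK-3 inhibitor CHIR99021. The labels give no treatment and no control, so the clones, numbered 16 to 26, were compared with each other. Each line is a single clone, and a difference between clones cannot be told apart from a difference between their libraries.

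Imprinted genes are read mainly or only from the allele inherited from a given parent. Most lie in clusters, each governed by a control region whose DNA methylation was set in the egg or the sperm and is kept through later divisions. Many of them act on fetal and placental growth. Embryonic stem cells are known to gain or lose imprints in culture, and the inhibitor medium used here is known to lower DNA methylation. The reads were counted per gene and not per allele, so a high level cannot be told apart from a contribution of the normally silent allele.

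Counts in genes totalled 10846005 to 16868500 per library, and 3 counts corresponded to 0.173 to 0.284 CPM. Embryonic stem cell markers were abundant in every clone: the 8 genes of that list summed to 7165 CPM in clone 17 and 9027 CPM in clone 20, led by Tfcp2l1, Esrrb and Tdgf1, and 0 of 8 were variable (2 at an unadjusted p under 0.05 in the edgeR test described below). The sum of 10 fibroblast markers was lowest in clone 17 (5.01 CPM) and highest in clone 24 (25.5 CPM), as was that of 7 primitive endoderm markers (4.21 and 10.3 CPM). Of 8 trophoblast markers the sum was 60.0 CPM in clone 21 to 121 in clone 19, of 5 neural markers 48.6 in clone 25 to 121 in clone 22, and of 5 germ cell markers 46.1 in clone 17 to 130 in clone 21. No marker in the table was at 0 in all clones. The libraries of clones 20 and 23 were the nearest to each other, with a median chi-square per gene of 1.28 against 0.455 under counting noise alone, so they were kept as separate samples. The libraries of clones 17 and 19 stood farthest from the rest over all genes: the median of this chi-square over the 10 pairs of a library was 8.65 for clone 17 and 10.4 for clone 19, against 4.04 to 7.42 for the other 9 clones.

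Levels of the imprinted genes covered a wide span. Per kb of annotated exon, the highest mean levels were those of Slc38a4, an amino acid transporter gene (124 CPM per kb), Impact, which encodes an inhibitor of the kinase GCN2 (86.7), and Igf2r, the receptor that removes insulin-like growth factor 2 (47.5). The lowest among the 31 were those of Usp29, a gene of the ubiquitin-specific protease family (0.175 CPM per kb), and Sgce, which encodes epsilon-sarcoglycan (0.449). All levels below are CPM per gene, not divided by length.

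Between clones, 13 of the 31 genes varied more than genes of the same abundance (41.9%). The test was edgeR's goodness of fit to an intercept-only negative binomial model with trended dispersion, adjusted by Benjamini-Hochberg over all genes tested, and 7.68% of all tested genes passed it. The 39 genes were chosen with earlier results of these data known. In a further list of imprinted genes, 2 of 19 tested genes passed (10.5%), and the difference between the shares was not tested. The share of 41.9% is given for the genes listed here and cannot be extended to imprinted genes at large. The median standard deviation (SD) over clones of log2(CPM + 1) was 0.46 for the 31 genes and 0.24 for all tested genes. Of 14 paternally expressed genes 8 were variable, and of 8 maternally expressed genes 5. Among 9 genes whose imprinting was taken to depend on tissue or promoter, or to which no parental class was given, 0 were variable in the edgeR test, 0 had an unadjusted p under 0.05, and 0 passed with the dispersion trend of DESeq2. This split depends on classes given from general knowledge. The variable gene Grb10 was classed as maternal, although it is maternally expressed in most tissues and not in all. Whether the other genes of a fixed class, the variable Ppp1r9a among them, are read from 1 allele in these cells was not measured. Moving a variable gene such as Grb10 or Ppp1r9a to the group without a fixed class would end its count of 0.

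**Figure D1:**
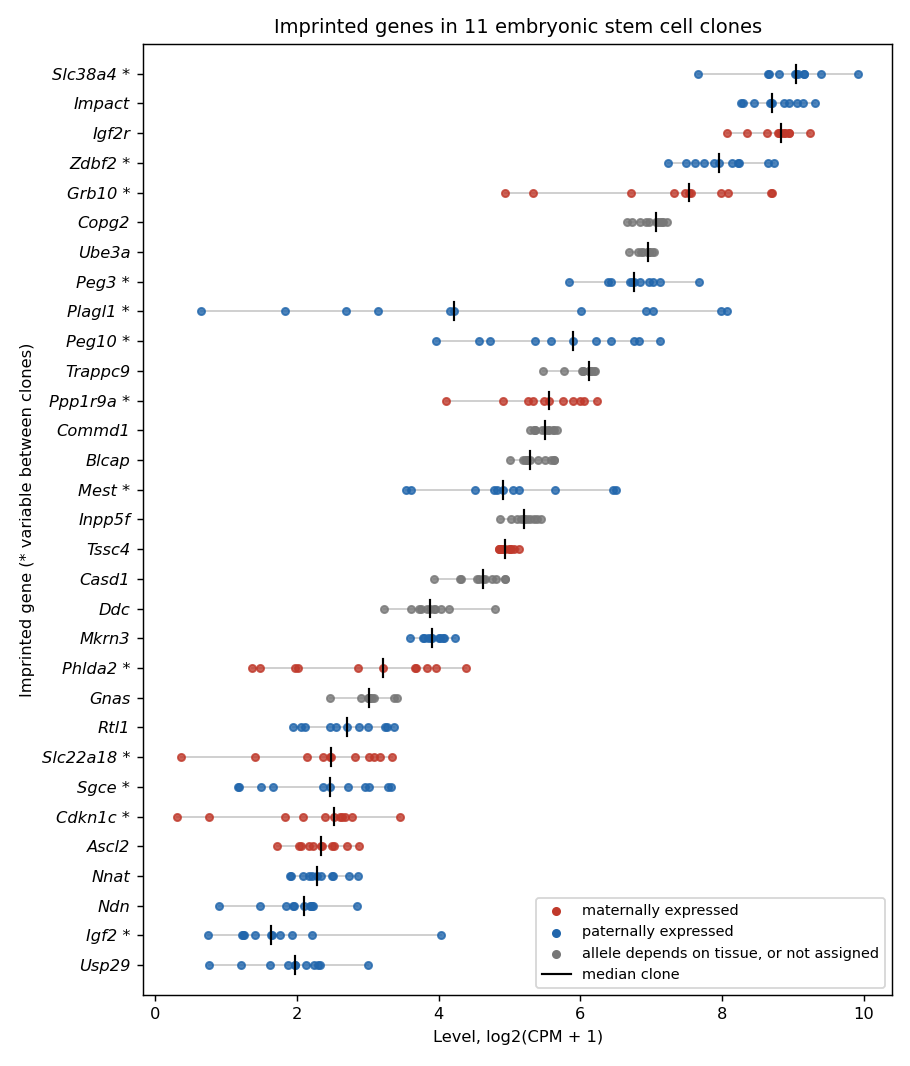
Level of each of the 31 imprinted genes, as log2(CPM + 1) on the horizontal axis, in each of the 11 clones (points, 1 library each), with genes ordered by mean level and the median clone as a black tick. Asterisks mark the 13 variable genes; Plagl1 spans the widest range, from 0.567 to 267 CPM, and none of the grey genes, whose imprinted allele depends on tissue or was not assigned, carries an asterisk.

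Plagl1, a zinc finger transcription factor gene expressed from the paternal allele and known as a regulator of other imprinted genes, had the widest range. Its level was 267 CPM in clone 19, 251 in clone 21, 129 in clone 22, 121 in clone 18 and 63.2 in clone 17. In the other clones it was 17.6 CPM (clone 20), 16.9 (clone 26), 7.87 (clone 23), 5.48 (clone 16), 2.56 (clone 25) and 0.567 (clone 24). The highest level was thus 469.9 times the lowest, and the other clones were spread between them (SD of 2.56 on the log2 scale; edgeR goodness of fit, adjusted p = 7.72e-146). In RNA from whole cultures, fewer cells with the transcript and less of it per cell cannot be told apart. Its neighbours on chromosome 10 did not pass the same test: Sf3b5 lay between 41.0 and 64.2 CPM, and Ltv1 between 88.4 and 103 CPM. The promoter of Plagl1 lies in a region methylated on the maternal allele, and its 250 bases before the start are shown because this gene varied most; they hold 19 CpG dinucleotides. In this and the following sequences, which are from RefSeq on GRCm38.p6, written 5′ to 3′ on the gene's strand and ending just before the start, capitals mark TGCCGC or its reverse complement GCGGCA, the hexamer known to be bound, when methylated, by the imprint-protecting protein ZFP57.
Plagl1 (chr10:13090582-13090831, strand +): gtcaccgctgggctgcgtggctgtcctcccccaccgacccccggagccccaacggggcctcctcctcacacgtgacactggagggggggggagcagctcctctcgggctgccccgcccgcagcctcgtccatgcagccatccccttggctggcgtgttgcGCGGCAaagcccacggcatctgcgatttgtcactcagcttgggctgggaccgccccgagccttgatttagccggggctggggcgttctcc

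Grb10, an adaptor gene that restrains insulin and growth factor receptor signalling and is maternally expressed in most tissues, had 29.6 CPM in clone 19 and 39.3 in clone 17, a median of 185, and 413 in clone 24 and 414 in clone 16. Clones 17 and 19 stood below the other 9, of which clone 22 was lowest with 104 CPM (edgeR goodness of fit, adjusted p = 1.34e-34). Its neighbour Ddc, the aromatic amino acid decarboxylase gene, which is imprinted in the heart, did not pass (8.38 to 26.8 CPM, median 13.7), and Cobl on the other side lay between 490 and 787 CPM without passing. Clone 17 held the highest Ddc level and the second lowest Grb10 level. The 2 annotated starts of Grb10 differ in base composition, with 40 CpG dinucleotides before the upstream start and 8 before the downstream start, which is why both are shown. The counts do not tell which start was used.
Grb10 (chr11:12037421-12037670, strand -): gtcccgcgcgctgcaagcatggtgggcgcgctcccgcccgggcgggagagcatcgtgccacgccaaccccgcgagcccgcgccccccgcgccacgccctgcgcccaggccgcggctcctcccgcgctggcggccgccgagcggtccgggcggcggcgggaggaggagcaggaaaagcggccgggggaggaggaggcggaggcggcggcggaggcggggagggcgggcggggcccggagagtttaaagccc
Grb10 (chr11:12027972-12028221, strand -): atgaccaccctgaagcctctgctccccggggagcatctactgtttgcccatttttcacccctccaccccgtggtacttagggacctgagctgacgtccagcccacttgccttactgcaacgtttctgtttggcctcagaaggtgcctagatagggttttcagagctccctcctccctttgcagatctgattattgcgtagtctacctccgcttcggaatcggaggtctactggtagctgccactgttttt

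The growth-related genes of distal chromosome 7 form a maternally expressed domain that also holds the paternally expressed Igf2. Phlda2, which limits placental growth, was at 1.59 CPM in clone 17, a median of 8.27 and 19.9 in clone 26 (edgeR goodness of fit, adjusted p = 7.42e-07). The transporter gene Slc22a18 was at 0.289 CPM in clone 19, a median of 4.60 and 9.16 in clone 26 (adjusted p = 0.00329 in the same edgeR test). Cdkn1c, a cyclin-dependent kinase inhibitor gene, was at 0.238 CPM in clone 17, a value from 3 counts, with a median of 4.77 and 9.96 in clone 24 (adjusted p = 0.00107 in the same edgeR test). Clones 17 and 19 held the lowest 2 levels of all 3 genes, and of Grb10 on chromosome 11 as well. The variability call of Slc22a18 rested on clone 19 (adjusted p = 0.578 without it) and that of Cdkn1c on clone 17 (adjusted p = 0.137 without it, both by edgeR), while Grb10 and Phlda2 stayed variable without both clones. Annotated Cdkn1c exons share 30.7% of their bases with the antisense gene Gm44732, so its level may hold reads of that gene. In the same domain Tssc4 stayed between 27.8 and 34.1 CPM, and Ascl2, a transcription factor gene of trophoblast, between 2.31 and 6.32 CPM, and neither passed. The potassium channel gene Kcnq1 was under a mean of 1 CPM (0.115 to 0.451).

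Igf2, the fetal growth factor gene, was at 15.3 CPM in clone 16 against 1.95 ± 0.855 in the other 10 clones (SD, n = 10), which lay between 0.680 and 3.64 CPM. Clone 16 did not overlap the others, with a log2 fold change of 2.96 ± 0.47 (SE, the log2 fold change over the square root of its F; edgeR quasi-likelihood test of 1 clone against the other 10, adjusted p = 0.0294 over all genes and clones). Of 341 pairs of imprinted gene and clone this was the only call (0.293%), and 0.213% of all pairs passed, 0.105% higher and 0.109% lower than the other clones. The call was near its threshold: leaving out clone 18, 22, 23 or 25 gave adjusted p-values of 0.0567, 0.0536, 0.0650 and 0.0556 in that order (edgeR), with log2 fold changes of 2.92 to 2.98. Without clone 16 Igf2 was not variable (edgeR goodness of fit, adjusted p = 1). The fibroblast markers, which mark cells known to express Igf2, summed to 10.5 CPM in clone 16, below the median of 17.7, and all 10 were in the table. Fbn1 made up most of that sum (mean of 9.38 CPM over clones). Col1a2 (0.284 CPM), Col3a1 (0.0945) and Postn (0.189) were highest in clone 16, at or under its 3-count floor, and the other markers were highest in other clones. The 8 trophoblast markers summed to 78.3 CPM in clone 16, which was the median. Of these, Gata3 (1.89 CPM), Elf5 (0.473) and Hand1 (0.473) were highest in clone 16, and the others were highest in other clones. The part of fibroblasts, trophoblast or other cells in the Igf2 level was not tested. Of the annotated Igf2 exon bases 62.8% are shared with a second annotated gene on the same strand, Gm49394, so the reads may come from either. At an unadjusted p under 0.05, 24 of the 341 pairs stood out (7.04%), 6 higher and 18 lower, against 5.92% of all pairs.

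On proximal chromosome 6 the variable genes were Peg10, a retrotransposon-derived gene needed in placenta, Sgce and Ppp1r9a. Peg10 was at 14.5 CPM in clone 26, a median of 58.7 and 138 in clone 20 (edgeR goodness of fit, adjusted p = 7.89e-21). Sgce was at 1.26 CPM in clone 24, a median of 4.56 and 9.01 in clone 20 (adjusted p = 0.0190 in the same edgeR test; 0.0628, 0.0736 and 0.0789 without clone 17, 20 or 24, in that order). Ppp1r9a, which encodes the actin-binding protein neurabin, was at 16.2 CPM in clone 26, a median of 46.1 and 74.6 in clone 22 (adjusted p = 0.000232 by edgeR), a call that was lost without clone 26 (adjusted p = 0.188). Casd1, a sialic acid acetyltransferase gene next to Sgce, did not pass (14.3 to 29.7 CPM), and Asb4 was under a mean of 1 CPM (0 to 0.715).

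Mest, a paternally expressed gene for a protein of the hydrolase fold, was at 10.6 CPM in clone 19, 11.2 in clone 17, a median of 29.0, 87.0 in clone 22 and 90.1 in clone 24 (edgeR goodness of fit, adjusted p = 6.97e-17). Clones 17 and 19 were again the lowest, and clones 22 and 24 stood above clone 21 with 49.0 CPM. Its neighbour Copg2, a coatomer subunit gene, lay between 99.8 and 149 CPM and did not pass. Peg3, a zinc finger gene of proximal chromosome 7, was at 56.2 CPM in clone 19, a median of 107 and 203 in clone 24 (edgeR, adjusted p = 0.00312), and the call was lost without clone 24 (adjusted p = 0.255). Usp29 starts 147 bases from Peg3 on the opposite strand in GENCODE vM21; its levels, 0.693 CPM in clone 24 at the low end and 7.04 in clone 19 at the high end, did not pass. Zim1, the maternally expressed neighbour of Peg3, was under a mean of 1 CPM (0 to 0.441). The promoters of Mest and Peg3 lie, like that of Plagl1, in regions methylated on the maternal allele, and hold 14 and 8 CpG dinucleotides (the Mest sequence belongs to 1 of 3 starts in the RefSeq table).
Mest (chr6:30737800-30738049, strand +): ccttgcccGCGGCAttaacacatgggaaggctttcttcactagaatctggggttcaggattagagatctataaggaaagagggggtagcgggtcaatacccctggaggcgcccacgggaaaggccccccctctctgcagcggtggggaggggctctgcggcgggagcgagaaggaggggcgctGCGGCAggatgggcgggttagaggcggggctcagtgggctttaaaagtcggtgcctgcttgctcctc
Peg3 (chr7:6730420-6730669, strand -): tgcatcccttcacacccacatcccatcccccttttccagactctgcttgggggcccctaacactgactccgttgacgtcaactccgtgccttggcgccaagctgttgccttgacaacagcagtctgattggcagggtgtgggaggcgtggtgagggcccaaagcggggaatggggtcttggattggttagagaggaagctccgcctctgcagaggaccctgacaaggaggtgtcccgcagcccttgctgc

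The hexamer TGCCGC, counted on either strand, was found in 8 of 48 promoter windows of the 31 imprinted genes, of the 39, that matched an entry (16.7%), and in 8.68% of all 32851 windows of 250 bases. Among variable genes 4 of 20 windows held it, and among tested genes that were not variable 2 of 21. The hexamer holds a CpG dinucleotide, and the median number of these was 12.5 in the windows of imprinted genes and 6 in all windows. The shares were not matched for this composition. Several windows belong to the same gene and overlap, so these shares are a description. The genes Impact, Peg10, Sgce, Cdkn1c, Kcnq1, Rtl1, Trappc9 and Dcn were not matched.

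Zdbf2 and Slc38a4, single paternally expressed genes of chromosomes 1 and 15, were abundant and variable. Zdbf2, a zinc finger gene, was at 149 CPM in clone 26, a median of 248 and 422 in clone 24 (edgeR goodness of fit, adjusted p = 0.00107). Slc38a4 was at 201 CPM in clone 16, a median of 525 and 969 in clone 17 (adjusted p = 6.81e-06 by edgeR). Clone 16 lay below the other 10 clones for Slc38a4, of which clone 24 was lowest with 401 CPM. These were the 2 variable genes with a variable neighbour outside the list: Adam23 beside Zdbf2 (21.7 CPM in clone 19, median 116, 149 in clone 24; edgeR, adjusted p = 1.88e-08), and Slc38a2, a transporter gene of the same family, beside Slc38a4 (374 CPM in clone 22, median 438, 870 in clone 16; edgeR, adjusted p = 0.0176). In all, 2 of 13 neighbouring genes outside the list were variable, where 7.68% of all tested genes were, and the difference between these shares was not tested. Those that were not variable included Zfp28 beside Peg3, Cep41 beside Mest, Pon3 beside Ppp1r9a, Nap1l4 beside Phlda2, Mrpl23 and Th beside Igf2, Eef1b2 beside Zdbf2 and Amigo2 beside Slc38a4. Of these, Nap1l4, Th and Pon3 belong to a further list of imprinted genes. Over the 13 pairs of a variable gene and such a neighbour, 0 passed the permutation test of Pearson's r (3 at an unadjusted p under 0.05) and 2 that of Spearman's rho, both adjusted over the 13 pairs. Phlda2 with Nap1l4 had r = 0.80 (permutation p = 0.00501, adjusted p = 0.0651; rho = 0.85, permutation p = 0.00186, adjusted p = 0.0242), and r = 0.76 without clones 17 and 19. Zdbf2 with Adam23 had r = 0.61 (permutation p = 0.0372, adjusted p = 0.168; rho = 0.77, permutation p = 0.00719, adjusted p = 0.0467), and r = 0.62 without clones 24 and 26. Clone 16 thus had the lowest level of Slc38a4 and the highest of Slc38a2.

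Shifts of whole chromosome regions were measured as the median over the 20 nearest tested genes outside the imprinted lists of their deviation from the mean clone on the log2(CPM + 1) scale. For 29 of the 31 genes this shift stayed between -0.19 and 0.20 in every clone. The exceptions were on chromosome 15: around Slc38a4 it was -0.38 in clone 22 and 0.59 in clone 19, and around Trappc9 -0.18 in clone 18 and 0.29 in clone 19. With the shift subtracted, the SD of Slc38a4 was 0.64 against 0.56 without subtraction, that of Plagl1 2.54 against 2.56 and that of Grb10 1.21 against 1.22.

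**Figure D2:**
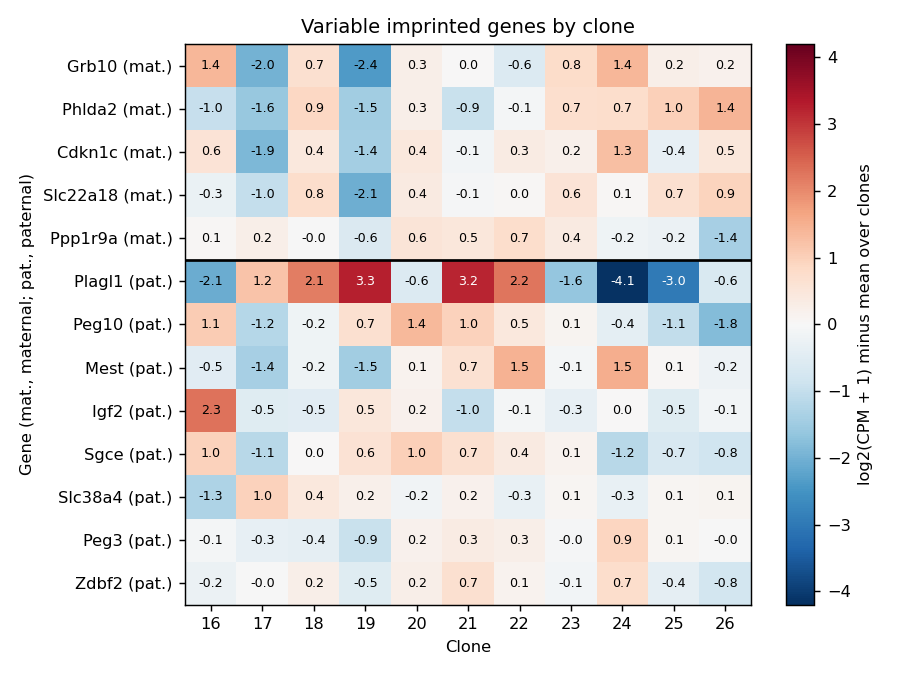
The 13 variable imprinted genes (rows, maternally expressed above the line and paternally expressed below it) in clones 16 to 26 (columns). Colour and number give log2(CPM + 1) minus the gene's mean over clones; the maternally expressed Grb10, Phlda2, Cdkn1c and Slc22a18 are lowest in clones 17 and 19, and Igf2 stands out in clone 16 alone.

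Genes that did not pass included several of the most abundant. Impact had its lowest level in clone 23 (308 CPM) and its highest in clone 20 (632 CPM; edgeR, adjusted p = 0.243, and 0.0181 without clones 17 and 19), and Igf2r its lowest in clone 19 (267 CPM) and its highest in clone 21 (603 CPM; adjusted p = 0.542 by edgeR). Ube3a, a ubiquitin ligase gene that is imprinted in neurons, lay between 102 and 130 CPM. In its chromosome 7 cluster the ring finger gene Mkrn3 lay between 11.0 and 17.7 CPM and Ndn, a gene of the MAGE family, between 0.874 and 6.19, while Magel2 of that family was under a mean of 1 CPM (0 to 0.579). Blcap (31.1 to 48.6 CPM) and Nnat (2.73 to 6.24), which lies within Blcap, did not pass, nor did Commd1, a copper handling gene (38.0 to 49.9), Inpp5f, an inositol phosphatase gene (28.2 to 42.7), Trappc9, a vesicle trafficking gene (43.3 to 72.5), or Gnas, which encodes the stimulatory G protein subunit (4.55 to 9.64). In the chromosome 12 cluster the retrotransposon-derived Rtl1 was at 2.87 to 9.36 CPM without passing, and Dlk1, a gene for a Notch ligand-like protein, at 0.140 to 1.38. Several of these genes share annotated exon bases with another gene (Ube3a with Snhg14, Commd1 with Zrsr1, Gnas with Gm20721, Tssc4 with Trpm5, Usp29 with Zim3), and since nothing used here says whether counting took the strand into account, their levels may hold reads of those partners. The remaining genes under a mean of 1 CPM were Nap1l5 (0 to 1.16 CPM), Rasgrf1, an exchange factor gene for Ras (0 to 0.0692, 3 counts in all), and Dcn, the decorin gene of connective tissue (1 count in all).

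The next comparison asked whether genes of the same imprinted cluster moved together over the clones. Among 28 pairs of neighbours in 7 clusters, 2 passed a permutation test of Pearson's r on log2(CPM + 1) (two-sided, 100000 permutations, Benjamini-Hochberg over the 28 pairs), and both are pairs expressed from the same parental allele. Peg10 and Sgce, which start 99 bases apart on opposite strands, had r = 0.91 (permutation p = 8e-05, adjusted p = 0.00112; Spearman's rho = 0.94, permutation p = 4e-05, n = 11), and r = 0.91 without clones 17 and 26, the farthest from the median. The order of the clones was the same in both genes from clone 20 at the top through clones 16, 21, 19, 22, 23 and 18, while clones 17, 24, 25 and 26 changed places at the low end. Phlda2 and Slc22a18, whose starts are 29.4 kb apart, had r = 0.87 (permutation p = 2e-05, adjusted p = 0.00056; rho = 0.95, permutation p = 5e-05, n = 11), and r = 0.89 without clones 17 and 19. Both pairs passed as well with the regional shift subtracted (adjusted p = 0.00098 for Peg10 and Sgce and 0.00056 for Phlda2 and Slc22a18, permutation test).

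The promoters of Phlda2 and Slc22a18 are shown because these genes moved together; their windows differ in composition, with 21 CpG dinucleotides for Phlda2 and 0 for Slc22a18, and no TGCCGC hexamer in either.
Phlda2 (chr7:143502525-143502774, strand -): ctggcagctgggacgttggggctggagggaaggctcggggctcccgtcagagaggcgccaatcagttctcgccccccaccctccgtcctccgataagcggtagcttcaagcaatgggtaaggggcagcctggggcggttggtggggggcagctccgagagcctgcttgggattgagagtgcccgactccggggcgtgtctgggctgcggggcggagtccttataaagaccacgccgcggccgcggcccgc
Slc22a18 (chr7:143473539-143473788, strand +): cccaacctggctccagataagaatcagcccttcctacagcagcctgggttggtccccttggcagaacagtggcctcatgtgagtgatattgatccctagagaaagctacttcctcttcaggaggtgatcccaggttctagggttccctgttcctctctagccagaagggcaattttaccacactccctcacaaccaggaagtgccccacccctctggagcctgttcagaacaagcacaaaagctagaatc

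**Figure D3:**
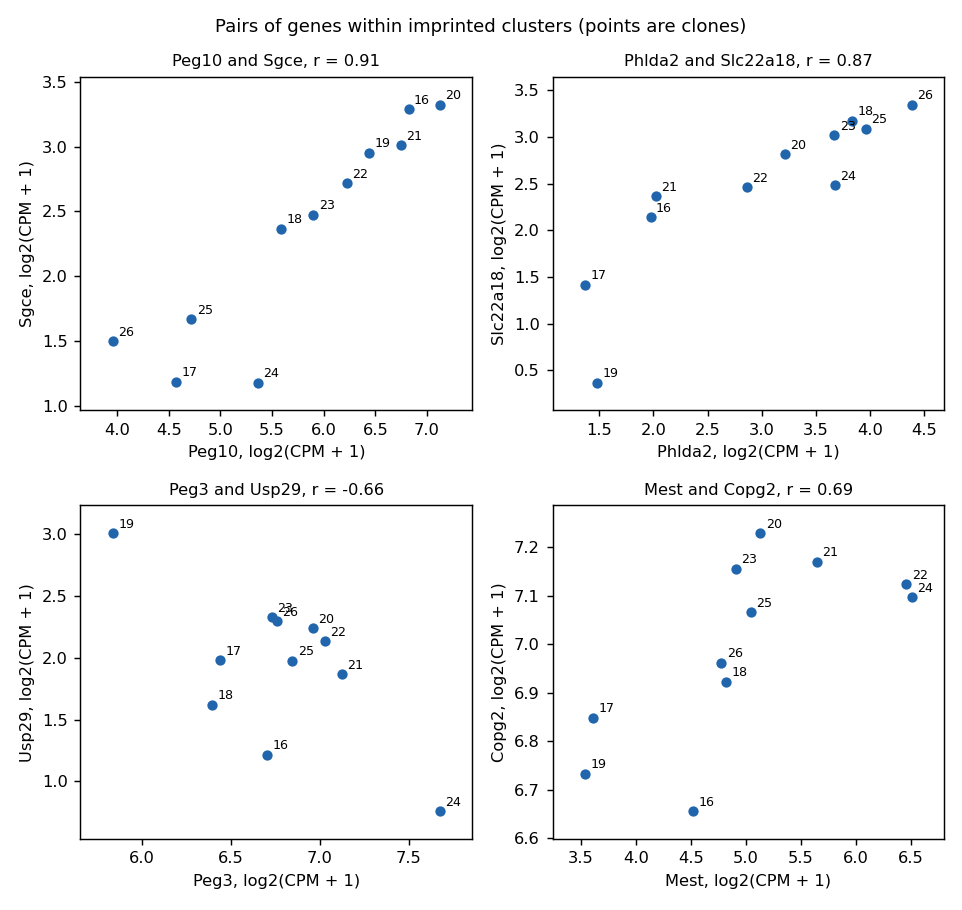
Levels of 4 pairs of genes from the same imprinted cluster, each axis log2(CPM + 1) and each point a clone with its number. The points for Peg10 with Sgce and for Phlda2 with Slc22a18 lie along a line (r = 0.91 and 0.87), those for Peg3 with Usp29 fall from clone 19 to clone 24 (r = -0.66), and those for Mest with Copg2 scatter more widely (r = 0.69).

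Other neighbours did not pass. Cdkn1c lies 12.7 kb from Slc22a18 and had r = 0.69 with it (permutation p = 0.0220, adjusted p = 0.136, rho = 0.41, permutation p = 0.212), but r = -0.24 without clones 17 and 19, so that relation rested on those clones. Its relation to Phlda2 behaved alike (r = 0.66, permutation p = 0.0246, adjusted p = 0.136; rho = 0.46, permutation p = 0.153), with r = 0.09 without those clones. Peg3 and Usp29, both paternally expressed and with starts 147 bases apart, had r = -0.66 (permutation p = 0.0305, adjusted p = 0.136; rho = -0.33, permutation p = 0.327), and 0.31 without clones 19 and 24, on which it rested. Grb10 and Ddc had r = -0.64 (permutation p = 0.0359, adjusted p = 0.136; rho = -0.58, permutation p = 0.0645) and -0.69 without clones 17 and 19, and without clone 19 alone this pair passed with r = -0.88 (adjusted p = 0.0202, permutation test). Peg10 and Ppp1r9a, of opposite parental class, had r = 0.61 (permutation p = 0.0387, adjusted p = 0.136; rho = 0.55, permutation p = 0.0800) and 0.44 without clones 17 and 26, and it passed without clone 19 with r = 0.74 (adjusted p = 0.0472, permutation test). Mest and Copg2 had r = 0.69 (permutation p = 0.0200, adjusted p = 0.136; rho = 0.78, permutation p = 0.00577) and 0.75 without clones 22 and 24, and their annotated exons share 912 bases on opposite strands. The other 20 pairs had unadjusted permutation p-values above 0.05. Among them, Casd1 had r = 0.19 with Peg10, 0.31 with Sgce and 0.30 with Ppp1r9a, and Sgce had 0.43 with Ppp1r9a. On distal chromosome 7, Tssc4 and Ascl2 had r between -0.13 and 0.49 with the maternally expressed genes and each other, and Igf2 had r between -0.32 and 0.21 with the other 5 genes. Nnat had r = 0.35 with Blcap, and Mkrn3, Ndn and Ube3a had 0.16 to 0.52 among themselves. Over all 28 pairs the median r was 0.27, with 0.45 over 13 pairs of the same fixed parental class and -0.09 over 7 pairs of opposite class. Of the opposite-class pairs, 5 were those of Igf2 on distal chromosome 7. The others were Ppp1r9a with Peg10 (r = 0.61) and with Sgce (r = 0.43). Most same-class pairs were also of distal chromosome 7, so parental class cannot be told apart from cluster in these medians. Between clusters the median r over 437 pairs was 0.09.

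Maternally and paternally expressed genes were then set side by side in each clone, as the median over genes of log2(CPM + 1) less each gene's mean over clones, a description without a test. The 8 maternally expressed genes had a median of -1.06 in clone 19 and -0.65 in clone 17, and 0.04 to 0.39 in the other 9 clones. Of these genes, Cdkn1c, Phlda2, Slc22a18, Tssc4 and Ascl2 lie in a single cluster on distal chromosome 7. The median thus cannot tell a shift of the maternal class from one of that cluster. The allele read in these cells was not measured, so the classes may not hold in them. In clones 19 and 17, 1 of 8 maternally expressed genes was above its mean in each. The 14 paternally expressed genes had a median of 0.15 in clone 19, -0.34 in clone 17 and -0.19 to 0.46 in the other clones, the highest in clone 21. Clone 19 thus had the largest gap between the classes, with the maternal median 1.21 below the paternal. In clones 20 and 23 all 8 maternally expressed genes were above their means. Clones 17 and 19 are also those whose libraries stood farthest from the rest over all genes, and the part of that distance in the maternal medians was not tested.

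**Figure D4:**
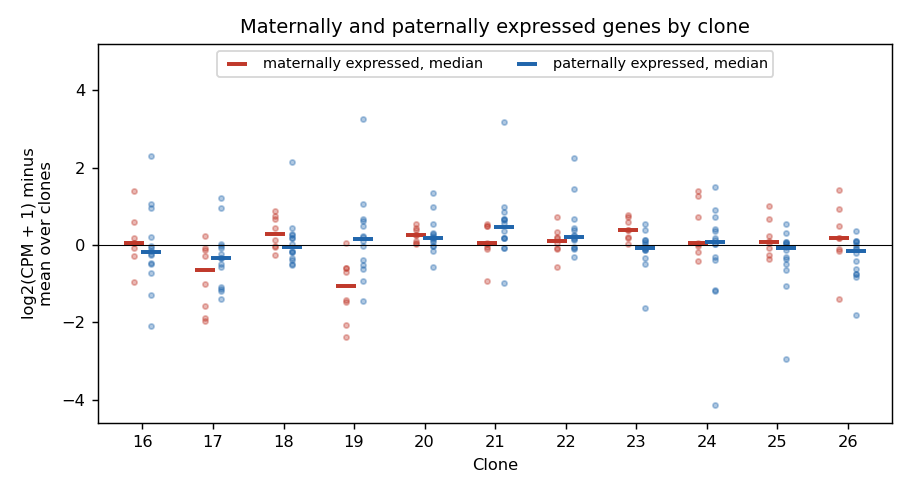
Deviation of each maternally expressed (red, 8 genes) and paternally expressed (blue, 14 genes) gene from its own mean over clones on the log2(CPM + 1) scale, by clone, with bars at the class medians. The maternal median lies at -1.06 in clone 19 and -0.65 in clone 17, below those of the other clones. Most of the maternally expressed genes lie in a single cluster on distal chromosome 7.

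Extreme levels of the 31 genes were listed by clone, without a matching count over all tested genes. Clone 19 held the lowest level of 8 of the 31 genes and clone 26 that of 7, clone 24 held the highest level of 6, and clone 18 held neither extreme for any. The library of clone 19 was also the farthest from the rest over all genes. These counts are a description and cannot be read as particular to imprinted genes. Clone 24 combined the highest Peg3, Zdbf2, Mest and Cdkn1c levels with the lowest Plagl1 and Sgce levels. Clone 26 combined the highest Phlda2 and Slc22a18 levels with the lowest Zdbf2, Peg10 and Ppp1r9a levels.

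Clones 20 and 23, the nearest libraries, still differed at some imprinted genes. With 1 library each there was no test, and the pair was chosen after the values were seen. Clone 20 had 138 CPM of Peg10 against 58.7 CPM in clone 23. The levels in clones 20 and 23 were 17.6 and 7.87 CPM for Plagl1, 632 and 308 CPM for Impact, and 9.01 and 4.56 CPM for Sgce. These 4 of 31 genes, all higher in clone 20, differed by at least 1.5-fold on the CPM + 1 scale, as did 1.75% of all tested genes. For Impact, clone 20 had the highest and clone 23 the lowest level of the 11 clones.

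Factors that keep or erase imprints differed widely in level. Of 18 genes of that list, all tested, 3 were variable in the edgeR test (16.7%, with 7.68% of all genes): Dnmt3l, a cofactor of DNA methyltransferases, Tet2, an enzyme that oxidises methylated cytosine, and Dppa3, a protector of maternal methylation in the zygote. Dnmt3l was lowest in clone 19 (154 CPM, median 467, 638 in clone 16) and Dppa3 highest in clone 19 (23.3 CPM, median 0.414). Tet2 was lowest in clone 26 (308 CPM) and highest in clone 16 (1005 CPM). It lies on chromosome 3. Of the other tested genes listed on that chromosome, Setdb1 (357 CPM), Jade1 (1203), Sox2 (1062) and Foxo1 (68.4) were also highest in clone 16, without passing. Nes was highest in clone 19. The regional shift was not measured around Tet2. The most abundant, Trim28, a corepressor recruited to imprints, lay between 1537 and 1975 CPM in the clones, Tet1 between 744 and 1201 and Uhrf1 between 533 and 901 CPM, and none of these passed. Zfp57 lay between 420 and 774 CPM and Dnmt1, which copies methylation, between 370 and 597 CPM, and neither passed. The part of these genes in the imprinted genes' levels was not tested.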

How the data were processed

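Total RNA from 11 clones (RNeasy; TruSeq RNA libraries, per the labels' protocols) gave the deposited read counts per Ensembl gene, whole numbers not normalized, for protein-coding genes of Ensembl release 66, per the deposited table's name. TopHat 1.4.0, Bowtie 0.12.7 and the builds mm9 and hg19 are named in the submitters' processing notes. The labels and files do not state how reads were counted or whether strand was used, and no strand is marked in the kit named by the labels.

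Libraries were scaled by TMM in edgeR 4.0.16 (R 4.3.3), and genes averaging at least 1 CPM were kept. Variability was a goodness of fit to an intercept-only negative binomial model with trended dispersion, and each clone was set against the other 10 by the quasi-likelihood test. Both used Benjamini-Hochberg adjustment at 0.05, the first over all genes tested and the second over all pairs of gene and clone. Pairs of genes in a cluster were compared by Pearson's r and Spearman's rho with 100000 permutations (NumPy 2.4.6). Levels are CPM, and correlations use log2(CPM + 1). The tests were also tried on simulated data. For the edgeR tests, changes were placed only in genes averaging at least 5 CPM, with counts drawn from the trended dispersion of these data. Igf2, Cdkn1c and Sgce averaged less, so the simulation does not bear on their calls. Names, exons and start sites came from GENCODE vM21 and promoters from RefSeq, both on GRCm38.

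Every imprinted gene is accounted for. The clone calls, all pairs within clusters, the nearest tested neighbours of variable genes, and for other lists the variable genes and the 3 most abundant are reported. Promoters are shown for variable genes with a methylated region at the promoter and for Grb10, and those of Phlda2 and Slc22a18 were added after their values were seen. The genes and lists, and the parental classes from general knowledge, were chosen with earlier results of these data known. The labels give separate clones, 1 library each, so p-values measure the spread between these libraries. The 3-count floor (0.173 to 0.284 CPM) covers counting error only. Alternatives were the RLE scaling, other filters, pseudocounts and dispersion models, DESeq2 1.42.0, subtraction of regional shifts and omission of each clone.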

Additional observations from a re-analysis of the deposited data

How the results depend on the processing

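The count of 13 variable genes was 13 with RLE scaling, with no filter and with the DESeq2 dispersion trend, 10 of 24 at a mean of at least 5 CPM, 11 to 13 when each clone was left out, 12 without clones 18 and 20, and 12 without clones 17 and 19, both alternatives chosen after seeing the data. Without clones 17 and 19 Cdkn1c and Slc22a18 no longer passed and Impact did. With Poisson counting noise alone it was 31, with 95.4% of all tested genes variable, since no spread between clones was then allowed for. Plagl1, Grb10, Mest, Peg10, Phlda2, Slc38a4 and Zdbf2 were variable in all 17 settings other than Poisson noise. The single clone call, Igf2 in clone 16, had log2 fold changes of 2.86 to 3.12 with adjusted p-values of 0.000842 to 0.0900. The number of clone calls was 8 with the DESeq2 Wald test (2 higher and 6 lower, 2.35% of pairs, with 1.05% of the pairs of all genes), 0 to 2 when each clone was left out, 0 without clones 18 and 20 (edgeR, 21 pairs at an unadjusted p under 0.05) and 0 at a mean of at least 5 CPM (edgeR, 17 such pairs), where Igf2 was no longer tested. The number of cluster pairs that passed was 2 to 4 when each clone was left out, with 4 without clone 19, and 1 of 9 at a mean of at least 5 CPM, where Sgce was no longer tested. For the other moves the cause was not tested. Peg10 and Sgce had r = 0.89 to 0.97 (adjusted p = 0.00098 to 0.0385, permutation test), and Phlda2 and Slc22a18 r = 0.84 to 0.92 (adjusted p = 0.00018 to 0.0204, permutation test). Of the values for single genes, pairs and clones, 1028 kept their direction and side of the threshold, 22 crossed to pass it and 16 no longer passed. Most of the 22 were genes that became variable with Poisson counting noise. Another 19 values changed sign, all of them correlations of 9 pairs that did not pass with all clones. With the regional shift subtracted r was -0.15 for Phlda2 with Tssc4, -0.25 for Slc22a18 with Tssc4 and -0.04 for Ndn with Ube3a. Without clones 17 and 19 it was -0.24 for Cdkn1c with Slc22a18 and with Ascl2, -0.70 for Phlda2 with Ascl2 and -0.61 for Slc22a18 with Ascl2. When each clone was left out, r ran over 0 for Phlda2 with Tssc4 (-0.05 to 0.33), Slc22a18 with Tssc4 (-0.13 to 0.30), Phlda2 with Ascl2 (-0.23 to 0.35), Slc22a18 with Ascl2 (-0.05 to 0.56) and Ascl2 with Igf2 (-0.54 to 0.17), and was between 0.0 and 0.46 for Tssc4 with Ascl2. No paired analysis was possible because the clones form 1 group. The 8 genes under a mean of 1 CPM were left out by the filter, and with no filter none of them was variable (edgeR).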

Other observations

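A further list of 34 imprinted genes had 30 in the table, of which 19 were tested and 2 were variable (10.5%, with 7.68% of all tested genes; edgeR goodness of fit). Sfmbt2, a Polycomb-family gene known to be imprinted in the placenta, was at 27.8 CPM in clone 21, a median of 53.1 and 166 in clone 17 (edgeR, adjusted p = 2.89e-13). Dio3, a thyroid hormone deiodinase gene of the chromosome 12 cluster, was at 11.2 CPM in clone 19 and had a median of 1.32 (edgeR, adjusted p = 0.000274). The most abundant of that list, Jade1, Gab1 and Cd81, averaged 797, 509 and 266 CPM without passing. Snrpn, H19, Meg3 and Xist were not analysed here.

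Of 14 tested genes of insulin-like growth factor signalling 3 were variable (21.4%, with 7.68% of all tested genes; edgeR goodness of fit). Igf1r, the growth factor's receptor gene, was lowest in clone 19 (11.8 CPM, median 29.0, 48.1 in clone 23). Igfbp2, a binding protein gene, was highest in clone 19 (569 CPM, median 244), and Igfbp4, of the same family, highest in clone 17 (48.2 CPM, median 11.8). The most abundant, Igf2bp1, Igf2bp2 and Igfbp2, averaged 708, 326 and 302 CPM, and the first 2 did not pass.

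Between genes of different clusters, a family of 437 pairs chosen after the values were seen, 0 passed the permutation test by Pearson's r or by Spearman's rho after adjustment, and 49 had an unadjusted p under 0.05 by Pearson's r. Grb10 with Cdkn1c had r = 0.89 (permutation p = 0.00120, adjusted p = 0.134; rho = 0.75), and r = 0.58 without clones 17 and 19. Peg3 with Mest had r = 0.88 (permutation p = 0.00025, adjusted p = 0.109; rho = 0.92), and r = 0.78 without clones 19 and 24.

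Among markers of other cell types, Col1a1 of the fibroblast list, Krt8 of the trophoblast list, Pax6, Nes and Tubb3 of the neural list, and Dazl and Dppa3 of the germ cell list were variable (edgeR goodness of fit), and 0 of the 3 tested primitive endoderm markers were, with 0 at an unadjusted p under 0.05. Col1a1 and Pax6 reached a mean of 1 CPM only through clone 19 (4.50 CPM, against a mean of 0.836 in the other clones) and clone 17 (10.2 CPM, against 0.985), so their calls carry no weight. The part of such cells in the imprinted genes' levels was not tested.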
